A study of Danio rerio with 25 samples.

Results

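Larval non-epicardial distal peaks are stretches of open chromatin outside promoters and exons that were more accessible in the other cells of the zebrafish larval heart than in its epicardium, the outer cell layer. They were chosen from the counts of 8 larval ATAC libraries. A peak had to lie in an intron or between genes, less than 50000 bases from the nearest annotated transcription start. Its mean level in non-epicardium had to reach 10 CPM (counts scaled to a library total of 1000000 over all peaks). It also had to be at least 3 times the mean in epicardium, after adding 1 CPM to both, in each of the 2 reporter lines. This rule held for 1023 peaks, 2.86% of the 35772 distal peaks and 1.65% of all 61954 peaks. They are called members below, and the mirrored rule, with epicardium over non-epicardium, held for 1643 distal peaks.

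Distal peaks often mark enhancers, stretches of DNA bound by transcription factors that raise transcription of a gene at a distance. Which enhancers are open differs between cell types, so the genes around a set of open regions can point to the cells it came from. A larval heart holds cardiomyocytes, an inner endocardium and the blood passing through it, beside the epicardium. In zebrafish larvae that blood is mainly made of nucleated red cells, which keep their chromatin and can therefore appear in an ATAC library.

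Open chromatin was mapped by ATAC-seq, which uses a transposase that inserts adapters into accessible DNA, and transcripts by RNA-seq. Larvae at 5 days post fertilization carried tcf21:H2B-Dendra2 or tbx18:myr-Citrine, reporters driven by epicardial genes, were untreated, and were split by FACS into epicardium and non-epicardium, with 2 ATAC libraries for each of these 4 groups. Adults carried tcf21:BirA-mCherry, and their epicardium was sorted by FACS for ATAC 3 days after cryoinjury, a freezing wound of the heart (4 libraries), or after sham surgery (2 libraries). RNA came from FACS-sorted cells of tcf21:H2B-Dendra2 larvae (3 libraries for each population) and from nuclei of tcf21:BirA-mCherry adults obtained by pulldown (3 after cryoinjury, 2 after sham). The labels do not say how many animals went into a library or whether replicates came from separate animals, so p-values measure only the spread between these libraries. Non-epicardium is every heart cell without the reporter signal, not a cell type of its own. The adult samples were sorted or pulled down as epicardium, and adult non-epicardial cells had no group of their own.

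Library totals ranged from 755606 to 6248597 counts in ATAC and from 4635226 to 8371594 in RNA. A single count is worth 0.16 to 1.32 CPM in the ATAC libraries, and no ATAC count is below 1, so a value of 1 stands for 1 read or none. In RNA, the 5 epicardium markers summed to between 953 and 1400 CPM in larval epicardium and to between 9.19 and 14.3 CPM in non-epicardium, and all 5 were called higher in epicardium. Red cell genes had the opposite pattern. The cardiomyocyte list, though called for 13 of 22 genes as higher in non-epicardium, still summed to between 719 and 1740 CPM in epicardium. Over all genes tested, 7.77% were called higher in non-epicardium and 5.68% higher in epicardium.

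The members' larval levels were the values that chose them and are given as a description. In tcf21 larvae the members had a median of 30.0 CPM in non-epicardium (range 10.1 to 283) and of 3.45 CPM in epicardium. In tbx18 larvae the medians were 23.9 CPM (range 10 to 190) and 2.59 CPM. The ratio after adding 1 CPM had a median of 6.06 in tcf21 larvae and 6.52 in tbx18 larvae, and its highest values were 71.6 and 39.2. Both non-epicardium libraries lay above both epicardium libraries at 1018 members in tcf21 and at 1022 in tbx18, which the rule itself favours. The same order held for 27.0% of all peaks and 23.6% of distal peaks in tcf21, and for 31.6% and 29.7% in tbx18. In the edgeR test over all peaks, 6.55% were called lower in tcf21 epicardium and 13.1% in tbx18 epicardium (adjusted p under 0.05, the meaning of "called" throughout). In epicardium, both libraries held the minimum count of 1 at 75 members in tcf21 and at 77 in tbx18. Both held 3 counts or fewer at 386 members in tcf21 and at 142 in tbx18, so the ratios there rest on few reads.

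The thresholds cut through a continuous range. The member nearest the tcf21 level limit, at tmem174, had 10.08 CPM, and the nearest peak outside it, at si:ch211-281k19.2, had 9.883 CPM. For the tbx18 level the pair was slc16a10 at 10 CPM and a peak at a 5S_rRNA gene at 9.97 CPM. For the ratio the pairs were sox6 at 3.002 and spns2 at 2.991 in tcf21, and fam49al at 3.01 and nr3c1 at 2.995 in tbx18. The member farthest from a start, at dlc1, lay 49841 bases away, and the nearest peak past the limit, at CR848825.1, lay at 50126 bases.

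**Figure D1:**
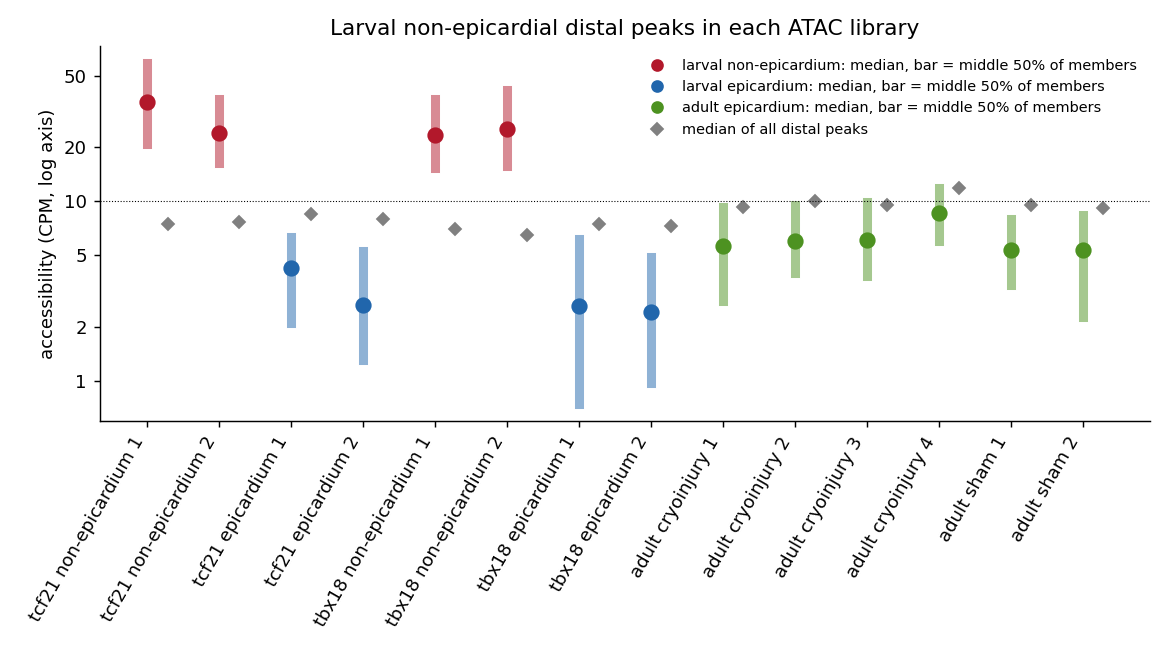
Accessibility (CPM, log axis) of the 1023 members in each of the 14 ATAC libraries, with the median as a point, the middle 50% of members as a bar, and the median of all distal peaks as a grey diamond. Members lie above all distal peaks in the 4 non-epicardium libraries, below them in the 4 larval epicardium libraries, and below them in the 6 adult epicardium libraries, whose member medians run from 5.33 to 8.64 CPM.

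Of the members, 723 (70.7%) lay in introns and 300 between genes, against 65.0% in introns among all distal peaks and 64.2% under the mirrored rule. Their median distance to a start was 11816 bases, against 12301 for all distal peaks and 15966 for the mirrored rule. The share closer than 5000 bases was 26.3%, against 24.3% and 16.1%. Median GC content was 42.3% in members, 42.5% in all distal peaks and 44.1% under the mirrored rule, and 96.8% of members spanned 501 bases. The members' share of distal peaks ran from 1.66% on chromosome 12 to 3.94% on chromosome 2, and 247 members had another member within 50000 bases.

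The deposited annotation assigned the members to 917 genes, 829 of them with 1 member, 73 with 2, 12 with 3 and 3 with 4. The assigned gene is the one whose start is nearest, which need not be the gene a region acts on. Among 583 intronic members whose host gene is known, 474 lay inside the gene they were assigned to. Clone or placeholder names stood at 237 members, including 44 assigned to 5S_rRNA copies (4.30%, against 5.5% of all distal peaks).

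Each reporter line gave a test of peaks chosen with the other. Distal peaks that met the tcf21 criteria alone numbered 2390, and 1526 of them (63.8%) were called lower in epicardium with the tbx18 libraries, which had no part in choosing them. Of all distal peaks 15.1% were called lower in that comparison. The chosen peaks had to reach 10 CPM in the non-epicardium of the line that chose them. All distal peaks had median non-epicardium levels of 7.67 CPM in tcf21 and 6.71 CPM in tbx18. The part of this difference in level in the shares called was not tested. On the log2 scale, the median ratio of epicardium to non-epicardium was -2.04 for the chosen peaks and -0.02 for all distal peaks, and 16 chosen peaks were called higher (13.8% of all peaks were). Distal peaks that met the tbx18 criteria alone numbered 2572, and 935 of them (36.4%) were called lower in tcf21 epicardium, against 6.02% of all distal peaks. Their median log2 fold change was -1.57, against 0.14 for all distal peaks, and 4 were called higher (6.69% of all peaks were). Leaving out a single library changed the tcf21 count, to between 445 and 886 calls, with the lowest without non-epicardium replicate 1. Without epicardium replicate 1 it was 545, and without epicardium replicate 2 it was 532.

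Genes of red cells held the highest share of members among 14 cell type lists. Of 25 distal peaks at erythroid genes, 13 (52.0%) were members, spread over 11 genes. Blood progenitor genes had 11 members among 46 distal peaks (23.9%, 7 genes), thrombocyte genes 2 among 7, and endothelium and endocardium genes 11 among 95 (11.6%, 10 genes). These shares are descriptions beside the 2.86% of all distal peaks. The list of cardiac transcription factors had 2 members among 67 distal peaks, both at mef2aa. Mural and smooth muscle genes had 1 member, at elna, which encodes elastin, and neural crest genes had 1, at sox10, a transcription factor of that lineage.

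No member was assigned to a gene of the cardiomyocyte list (22 distal peaks), nor to leukocyte (17), neural (15), epithelium (12), skeletal muscle (7), hepatocyte (5) or epicardium genes (31). At the 2.86% share of members among all distal peaks, lists this short can hold no member, so these absences are not read as a result. The 22 distal peaks at cardiomyocyte genes, which belong to 16 genes, had median levels of 5.48 CPM in tcf21 non-epicardium and 5.57 CPM in tcf21 epicardium. In tbx18 larvae they had 3.31 CPM in non-epicardium and 7.91 CPM in epicardium. The RNA of the same list was called higher in tcf21 non-epicardium for 13 of 22 genes, where 7.77% of all genes tested were. Its sums there were 4600 to 13000 CPM, against 719 to 1740 CPM in epicardium. In tcf21 larvae, accessibility at these distal peaks and the RNA of the list did not show the same contrast. The 2 sets of genes are not the same, as not every gene of the list had a distal peak. The peak levels are also low, with a single count worth 0.44 to 1.32 CPM in the tcf21 libraries.

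**Figure D2:**
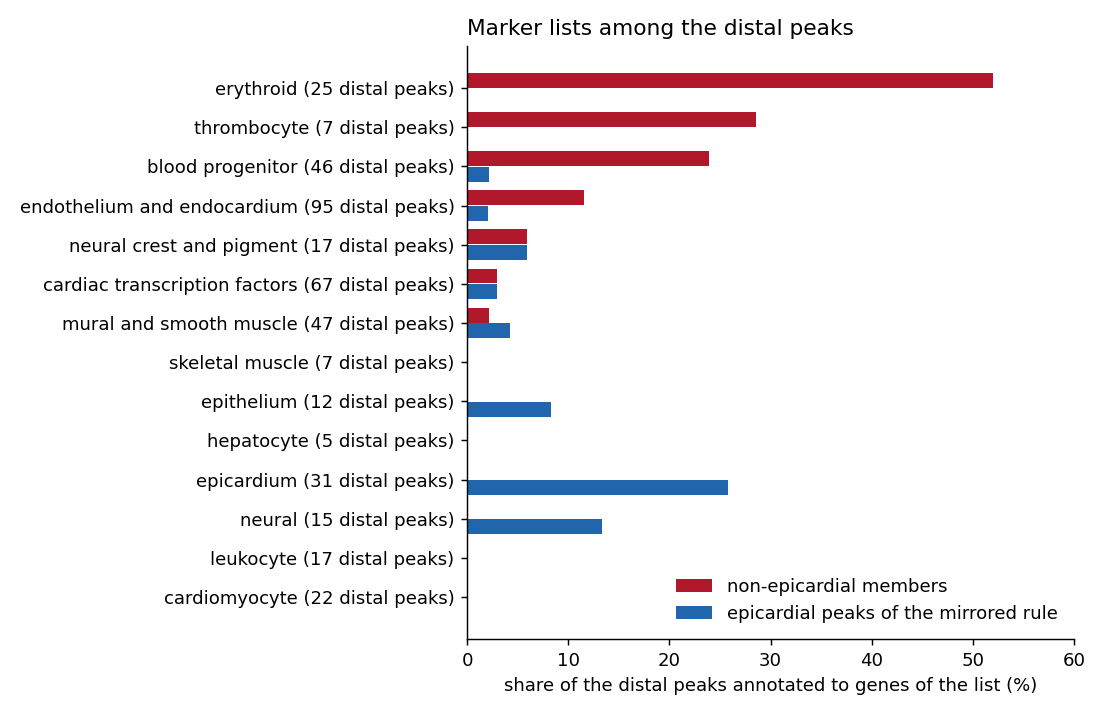
Share (%) of the distal peaks assigned to the genes of each cell type list that are non-epicardial members (red) or meet the mirrored epicardial rule (blue). The erythroid list reaches 52.0% and the blood progenitor list 23.9% in red, and of the 31 distal peaks of the epicardium list 8 are blue and 0 are red.

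The erythroid members stood at genes with different roles in red cells. At hbae3, an alpha globin gene of embryos and larvae, the member on chromosome 3 (54897031 to 54897531, GRCz10, between genes, 3891 bases upstream of the start) had 67.3 and 29.6 CPM in tcf21 non-epicardium and 2.12 and 1.32 CPM in tcf21 epicardium. In tbx18 larvae it had 22.7 and 33.0 CPM in non-epicardium and 0.187 and 0.487 CPM in epicardium, which is the minimum count of 1 in both epicardium libraries. The adult epicardium libraries had 2.80, 4.50, 5.74 and 6.55 CPM after cryoinjury and 2.29 and 1.52 CPM after sham. The lowest non-epicardium value was thus more than any adult or larval epicardium value.

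At gata1a, the transcription factor that directs red cell formation, the member lay 4349 bases upstream (chromosome 11, 25185339 to 25185839). It had 34.3 and 39.4 CPM in tcf21 non-epicardium against 4.25 and 3.97 CPM in epicardium, and 11.7 and 20.4 CPM against 0.187 and 1.95 CPM in tbx18. The gene klf1 encodes a zinc finger factor that switches on globin genes in mammals. Its member (chromosome 6, 7891841 to 7892341) lay in an intron, 1913 bases upstream of the annotated start. It had 112.6 and 54.8 CPM against 3.19 and 2.65 CPM in tcf21. In tbx18 it had 45.6 and 41.8 CPM against 4.49 and 3.90 CPM. Neither member reached 10 CPM in any of the 6 adult libraries.

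The member at sptb, which encodes beta spectrin of the red cell membrane skeleton, was among the 5 strongest of all with a gene name. It had 285.9 and 177.4 CPM in tcf21 non-epicardium, 105.1 and 138.3 CPM in tbx18 non-epicardium, and between 23.4 and 27.3 CPM in the 4 larval epicardium libraries. Its adult levels ran from 7.5 to 21.5 CPM after cryoinjury and were 22.9 and 12.9 CPM after sham. The remaining erythroid genes with members were alas2 and urod of haem synthesis, tfr1a, which takes up iron, epor, the erythropoietin receptor, cahz, a red cell carbonic anhydrase, blvrb, a biliverdin reductase, and nt5c2l1, of a nucleotidase family. At their strongest members the tcf21 non-epicardium means ran from 21.2 CPM (alas2) to 79.3 CPM (nt5c2l1), and the epicardium means from 1.72 CPM (tfr1a) to 6.09 CPM (epor).

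Blood progenitor members stood at myb, tal1, lmo2, gata2a, gata2b, gfi1b and ikzf1, transcription factors or cofactors of blood stem and progenitor cells, several of which also act in red cells. The gfi1b member, 28099 bases from the start (chromosome 21, 17225956 to 17226456), had 295.2 and 155.5 CPM in tcf21 non-epicardium and 13.8 and 6.62 CPM in epicardium. In tbx18 it had 168.4 and 210.7 CPM against 29.9 and 30.2 CPM. At tal1 the intronic member had 74.8 and 35.0 CPM against 1.06 and 7.94 CPM in tcf21, and 40.0 and 41.8 CPM against 3.74 and 2.93 CPM in tbx18.

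The strongest member of all with a gene name was assigned to pdzk1ip1 and lay 41.3 kb from the tal1 member on the same chromosome (chromosome 22, 16551755 to 16552255). It had 344.0 and 222.3 CPM in tcf21 non-epicardium against 39.3 and 23.8 CPM in epicardium, and 157.8 and 175.9 CPM against 26.6 and 22.9 CPM in tbx18. In human and mouse, PDZK1IP1 and TAL1 are neighbouring genes as well. The RNA of pdzk1ip1 was 3.84, 1.19 and 5.95 CPM in the non-epicardium libraries and 2.52, 7.05 and 2.39 CPM in the epicardium libraries, so the groups overlapped. The RNA of tal1 was 260.6, 467.8 and 262.0 CPM against 1.04, 6.10 and 1.2 CPM.

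On chromosome 23, 7 intronic members lay within 74955 bases (31859157 to 31934111, GRCz10), 4 assigned to hbs1l and 3 to myb. hbs1l encodes a translational GTPase, and myb the progenitor transcription factor. In human, the interval between HBS1L and MYB holds enhancers active in red cell precursors. Here the 4 hbs1l members lay 6589 to 18422 bases downstream of the hbs1l start. The 3 myb members lay 25686 to 44900 bases downstream of the myb start. None of the 7 thus lay between the hbs1l start and the myb start. The strongest hbs1l member had 38.3 and 30.7 CPM in tcf21 non-epicardium against 1.06 and 2.65 CPM in epicardium. The myb member with the highest tcf21 level lay 31594 bases downstream of the myb start. It had 184.3 and 55.8 CPM against 3.19 and 1.32 CPM in tcf21, and 52.3 and 49.2 CPM against 0.187 and 0.487 CPM in tbx18. The peak at the start of myb, a promoter peak and so outside the rule, had group means of 30.2 and 8.63 CPM in tcf21. In tbx18 its means were 14.7 and 3.03 CPM. Its contrast was smaller than that of the 3 myb members, which the rule chose for their contrast. The start of the neighbouring gene armc1l was open in all groups, with means of 62.5 and 11.9 CPM in tcf21 non-epicardium and epicardium and 68.8 and 34.8 CPM in tbx18.

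**Figure D3:**
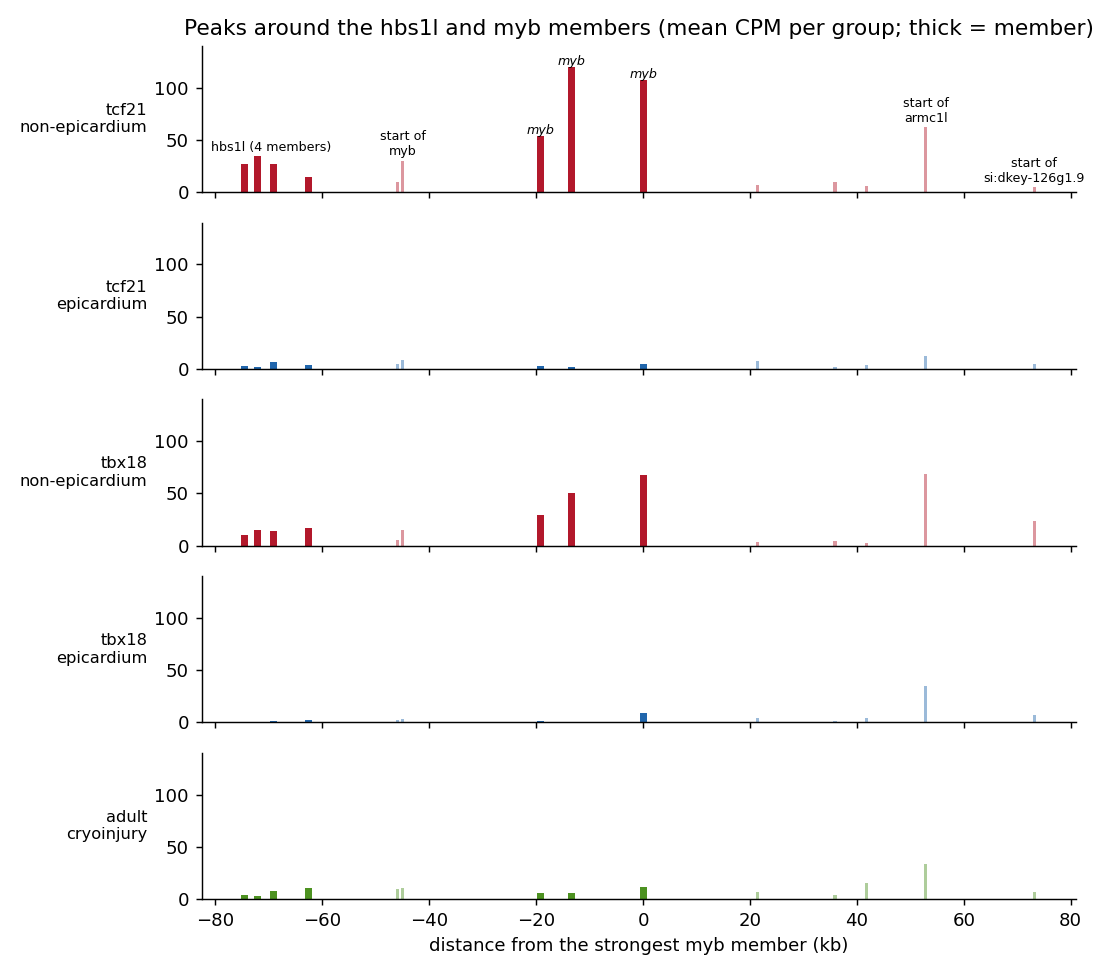
Mean accessibility (CPM, bars from 0) of the 14 peaks around the hbs1l and myb members in 5 groups, placed by distance in kb from the strongest myb member; thick bars are members and thin bars other peaks. The 7 members reach 120.1 CPM in tcf21 non-epicardium and at most 9.37 CPM in the larval epicardium groups. The peak at the start of armc1l, not a member, has 68.8 CPM in tbx18 non-epicardium and 34.8 CPM in tbx18 epicardium. In tcf21 it has 62.5 CPM in non-epicardium and 11.9 CPM in epicardium.

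Members at endothelium and endocardium genes differed from the blood members in which reporter line they were stronger. All 11 had a higher non-epicardium level in tbx18 than in tcf21 larvae, with medians of 58.4 and 22.2 CPM. All 13 erythroid members had the opposite order, with medians of 21.4 CPM in tbx18 and 43.6 CPM in tcf21, as did 10 of 11 blood progenitor members. The exception was gata2a, with 93.3 and 91.4 CPM in tbx18 against 27.3 and 37.2 CPM in tcf21. Over all members, 691 were higher in tcf21 and 332 in tbx18. These levels were used by the rule and are a description, and reporter, sort and library depth cannot be told apart.

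The egfl7 member, 2889 bases upstream of a secreted factor of endothelial cells (chromosome 21, 7706367 to 7706867), had 154.6 and 202.3 CPM in tbx18 non-epicardium and 22.1 and 13.7 CPM in epicardium. In tcf21 it had 33.4 and 32.9 CPM against 15.9 and 1.32 CPM. At cdh5, which encodes the cadherin of endothelial junctions, the member (chromosome 7, 44101412 to 44101912) had 66.4 and 82.6 CPM against 4.68 and 0.487 CPM in tbx18. In tcf21 it had only 17.2 and 7.66 CPM against 4.25 and 1.32 CPM. Further members stood at the VEGF receptors kdrl and kdr, the receptor tie1, the ETS family factors fli1a and erg, the junction gene esama, the adaptor gene she, and nfatc1, a transcription factor of endocardium and valves. Their tbx18 non-epicardium means ran from 26.3 CPM (tie1) to 83.5 CPM (esama), and their tcf21 means from 13.8 CPM (kdr) to 32.3 CPM (fli1a).

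**Figure D4:**
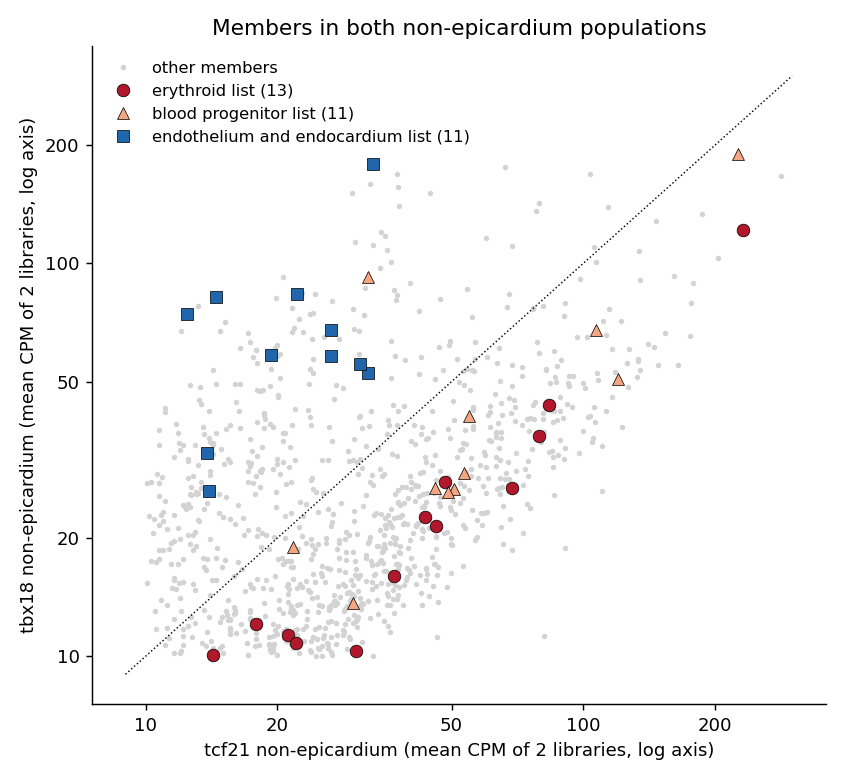
Each member's mean CPM in tcf21 non-epicardium (x) and tbx18 non-epicardium (y), 2 libraries each, on log axes; the dotted line marks equal levels. The 13 erythroid members (circles) lie under the line, the 11 endothelium and endocardium members (squares) above it, and 10 of the 11 blood progenitor members (triangles) under it.

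Taking members by reporter, 243 were at least 2-fold higher in tcf21 non-epicardium and 132 in tbx18 non-epicardium. The tcf21-high members included 5 erythroid, 2 blood progenitor and 0 endothelium members, and the tbx18-high members 0, 1 and 8. Of the genes of tcf21-high members tested in RNA, 62 of 204 (30.4%) were called lower in epicardium and 4 higher. Of the genes of tbx18-high members, 10 of 102 (9.80%) were called lower and 13 (12.7%) higher. Over all genes tested, 7.77% were called lower and 5.68% higher. All RNA libraries of this contrast came from tcf21 larvae, and RNA of tbx18 larvae was not analysed here.

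The RNA of genes with members was lower in epicardium more often than that of other genes, although most member genes were not called. RNA played no part in the rule. Of 917 genes, 842 are in the RNA table and 750 passed the filter on low counts, and 148 of these (19.7%) were called lower in epicardium, against 7.77% of all genes tested. A further 58 (7.73%) were called higher, against 5.68%. Among genes with a distal peak and no member, 521 of 8950 (5.82%) were called lower and 873 (9.75%) higher. Genes of the mirrored rule had 29 lower and 262 higher calls among 1027. The median log2 fold change was -0.20 for member genes, 0.66 for genes with a distal peak and no member, and 0.32 for all genes. Of genes with 2 or more members 19 of 76 (25%) were called lower and 8 (10.5%) higher. Genes with 1 member had 19.1% lower and 7.42% higher. In bulk RNA, fewer cells of a type and less RNA per cell cannot be told apart.

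Scaling shifted these counts. With total counts in place of TMM, the median over all genes rose from 0.32 to 0.93. The called member genes were lower in epicardium in 56.5% of cases, against 71.8% with TMM. With total counts 15.6% of member genes were called lower, against 5.42% of all genes tested. With TMM the shares were 19.7% and 7.77%. Relative to the median of all genes, member genes were lower by 0.52 with TMM and by 0.54 with total counts on the log2 scale. The count called higher was 90 with total counts, and it fell to 30 without non-epicardium replicate B.

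All 11 erythroid genes with a member were called lower in epicardium, where 7.77% of all genes tested were. Their log2 fold changes ran from -12.1 to -3.29. hbae3 RNA was 7618, 7536 and 10010 CPM in non-epicardium and 8.02, 4.57 and 3.35 CPM in epicardium (log2 fold change -11.11 ± 0.71 SE, edgeR adjusted p = 4.29e-08). gata1a RNA was 502.1, 914.8 and 818.7 CPM against 0.445, 2.67 and 1.31 CPM (-9.64 ± 1.42, edgeR adjusted p = 0.000122). No replicates overlapped between the groups at either gene. The whole erythroid list summed to between 27700 and 33200 CPM in non-epicardium and to between 92.9 and 203 CPM in epicardium, and all 17 of its tested genes were called lower.

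Of the 7 blood progenitor genes with a member, 5 were called lower in epicardium, where 7.77% of all genes tested were. The whole list had 5 of 12 tested genes called lower and 2 called higher, where 5.68% of all genes tested were called higher. It summed to between 1690 and 2410 CPM in non-epicardium and to between 310 and 433 CPM in epicardium. lmo2 RNA, of a bridging protein in blood transcription complexes, was 1096, 1124 and 832.8 CPM against 1.63, 3.62 and 2.03 CPM. myb RNA was 383.9, 429.7 and 343.4 CPM against 15.4, 9.52 and 2.63 CPM (log2 fold change -5.95 ± 0.73, edgeR adjusted p = 2.7e-05). gata2a and gata2b did not pass, with edgeR adjusted p values of 0.187 and 0.0547, although gata2b passed with DESeq2 and in a fit of the compared groups only. Both thrombocyte genes with members were called lower, nfe2, a transcription factor of platelet-forming cells in mammals, and fermt3b, an integrin activator. hbs1l was called with an edgeR adjusted p of 0.0449. That call was lost with total counts and with library column numbers as a replicate block. It was also lost without any of 5 of the 6 libraries in turn.

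Endothelium and endocardium genes with members were divided. cdh5, fli1a, egfl7, she and esama were called lower in epicardium, kdrl was called higher, and kdr, tie1, erg and nfatc1 were not called. The call of egfl7 (edgeR adjusted p = 0.0331) was lost with total counts and with the replicate block. It was also lost on leaving out any of 4 of the 6 libraries in turn, namely each epicardium library and non-epicardium replicate B. cdh5 RNA was 76.4, 49.7 and 25.6 CPM in non-epicardium and 3.41, 9.71 and 2.15 CPM in epicardium (log2 fold change -4.03 ± 0.57, edgeR adjusted p = 8.19e-05). kdrl RNA was 12.7, 13.7 and 8.83 CPM against 162.2, 136.4 and 143.3 CPM (3.17 ± 0.52, edgeR adjusted p = 0.000336). Its member had the opposite order in tcf21 larvae, 26.8 and 26.3 CPM against 5.31 and 3.97 CPM. The whole list summed to between 739 and 1190 CPM in non-epicardium and to between 880 and 1390 CPM in epicardium, so the sums overlapped. Of its 25 genes, 11 were called lower and 3 higher, where 7.77% and 5.68% of all genes tested were.

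**Figure D5:**
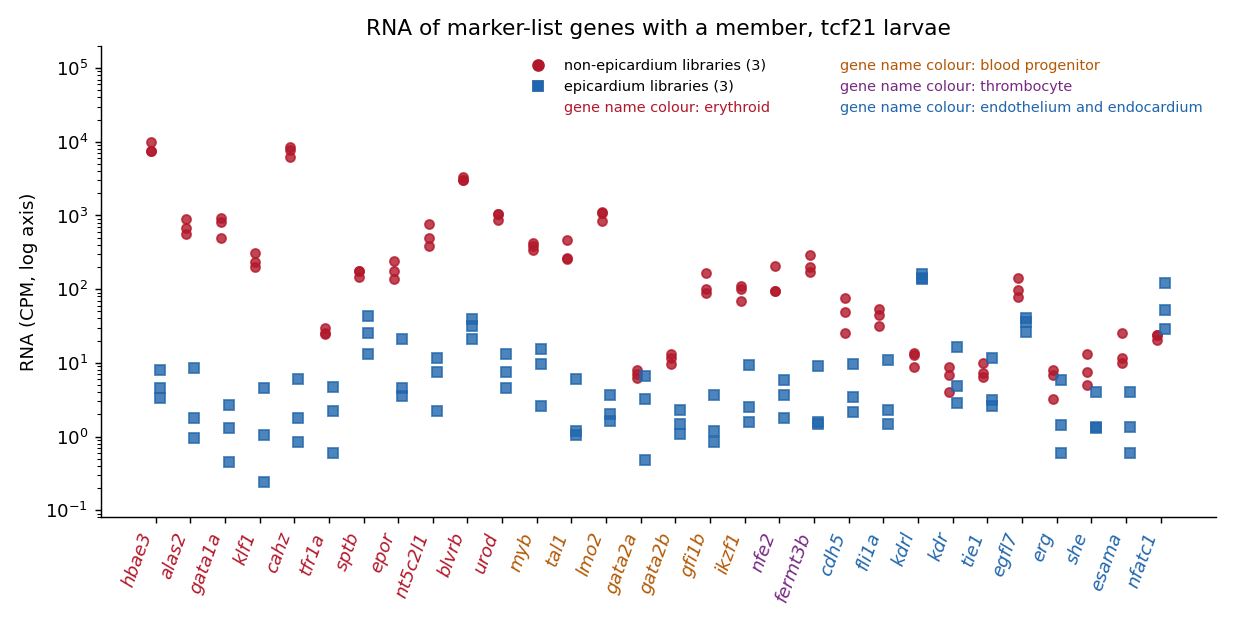
RNA (CPM, log axis) of the 30 genes of the erythroid, blood progenitor, thrombocyte and endothelium lists that have a member, with the 3 non-epicardium libraries as circles and the 3 epicardium libraries as squares. The erythroid genes are separated without overlap. Of the 4 lists, kdrl and nfatc1 have all epicardium libraries above all non-epicardium libraries, kdrl at 136.4 to 162.2 CPM against 8.83 to 13.7 CPM. The share of all genes separated in this way is not given here.

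Over all member genes, those with the largest RNA excess in non-epicardium were cahz, hbae3, hbz, hdr and klf17. cahz and hbae3 belong to the erythroid list, hbz is a globin gene, hdr a death receptor gene of blood cells, and klf17 a Krüppel-like zinc finger gene. cahz RNA was 6189, 7661 and 8562 CPM against 1.78, 6.10 and 0.836 CPM (log2 fold change -12.12 ± 1.11, edgeR adjusted p = 6.1e-07). hdr RNA was 1541, 1247 and 1206 CPM against 0.297, 4.57 and 0.478 CPM. The member genes with the largest excess in epicardium were lama5, cdh15, cxadr, phactr4a and eva1ba. lama5, a laminin chain of basement membranes, had 21.7, 7.16 and 7.21 CPM in non-epicardium and 852.2, 725.1 and 501.5 CPM in epicardium (5.37 ± 0.69, edgeR adjusted p = 2.83e-05). The call of cdh15, a cadherin, was lost with the replicate block and on leaving out any 1 of the 6 libraries. A gene can thus have a non-epicardial member and more RNA in the epicardium.

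Genes with the most members were mixed in RNA. Apart from hbs1l and myb, atp2b4, a calcium pump of the plasma membrane with 3 members, was called higher in epicardium, at 164.8, 102.1 and 190.2 CPM against 26.5, 15.5 and 25.4 CPM (log2 fold change 2.38 ± 0.49, edgeR adjusted p = 0.00228). coro2ba, of the actin-binding coronins (4 members), and zeb2a, a zinc finger repressor, nrp1b, a VEGF and semaphorin coreceptor, rapgef1b, a Rap exchange factor, exoc6b, of the exocyst, and creb1b, of the CREB factors (3 members each), were not called. smtla, which encodes a pituitary hormone, did not pass the filter and had at most 2.48 CPM in any larval RNA library. Its 3 members nevertheless had 18 to 58.5 CPM in tcf21 non-epicardium and 30.7 to 83.7 CPM in tbx18 non-epicardium.

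In adult epicardium the members were less open than other distal peaks. Their median CPM was 5.61, 6, 6.13 and 8.64 after cryoinjury and 5.34 and 5.33 after sham. The medians of all distal peaks were 9.35, 10, 9.57 and 11.8 after cryoinjury and 9.53 and 9.13 after sham. Members lay below in all 6 libraries. A mean of at least 10 CPM was reached by 183 members (17.9%), against 49.9% of all distal peaks and 55.1% of the mirrored rule. Members held 0.665 to 0.981% of the counts of adult libraries, 0.414 to 0.508% in larval epicardium and 3.14 to 4.81% in non-epicardium. Stage, reporter construct and experiment cannot be told apart between larval and adult libraries.

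Of the 26 members of the erythroid, blood progenitor and thrombocyte lists, 3 had an adult mean of at least 10 CPM, 1 from each list, as did 1 of the 11 endothelium and endocardium members. With so few members these shares are not set against the 17.9% of all members. The 13 erythroid members had a median adult level of 3.90 CPM (range 1.77 to 14.8), and fermt3b of the thrombocyte list had a mean of 18.7 CPM. The genes of the 183 were called lower in larval epicardium RNA in 24 of 148 cases (16.2%), against 127 of 622 (20.4%) for genes of the other members. In adult RNA the erythroid list summed to 207 to 540 CPM after cryoinjury and 424 to 828 CPM after sham, and hbae3 was at 0 in every adult library. The cardiomyocyte list summed to 32400 to 37200 CPM after cryoinjury and 40500 to 46500 CPM after sham. The epicardium list summed to only 573 to 610 CPM and 250 to 499 CPM. Where the cardiomyocyte RNA in these adult libraries came from was not tested. The part of remaining blood cells in the adult ATAC levels was not tested.

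The highest adult level at a named gene belonged to nr4a3, an orphan nuclear receptor of the rapid-response type. Its member (chromosome 16, 27371878 to 27372378) lay in an intron, 32322 bases upstream of the nr4a3 start. It had 36.5, 54.5, 73.1 and 48.5 CPM after cryoinjury and 32.0 and 63.9 CPM after sham. In larvae it had 76.1 and 61.3 CPM in tcf21 non-epicardium and 13.8 and 1.32 CPM in epicardium. In tbx18 the values were 53.0 and 57.5 CPM against 9.73 and 12.7 CPM. All 6 adult epicardium libraries lay above all 4 larval epicardium libraries, which the rule and the choice of the highest adult level both favour. The next members were at fam49al, dip2bb, polr3gla, of an RNA polymerase III subunit, and tmbim1b, with adult means after cryoinjury of 34.7 to 41.1 CPM. At tmbim1b the adult mean after cryoinjury, 41.1 CPM, exceeded the tbx18 non-epicardium mean of 16.3 CPM. It was below the tcf21 non-epicardium mean of 49.96 CPM. At polr3gla that adult mean, 40.41 CPM, exceeded the non-epicardium means of both lines, 36.45 CPM in tcf21 and 23.7 CPM in tbx18. The lowest adult levels at named genes were at chp1, a calcium-binding protein gene, cers1, a ceramide synthase gene, alas2, pigq, of glycolipid anchor synthesis, and add2, which encodes beta adducin. Their sham means ran from 0.571 to 1.90 CPM, near the worth of a few counts. Of these 5, chp1, alas2, pigq and add2 had RNA called lower in larval epicardium, where 19.7% of member genes and 7.77% of all genes tested were. With so few genes no share is drawn from this.

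No member was called between cryoinjury and sham. Over all peaks 1 of 61883 was called (0.00162%), and DESeq2 called 0 members and 10 peaks. The member log2 fold changes of cryoinjury over sham had a median of 0.29, against 0.06 for all distal peaks, 0.01 for all peaks and -0.20 for the mirrored rule. At an unadjusted p under 0.05, edgeR had 91 members higher after cryoinjury (8.90%, against 3.25% of all peaks) and 16 lower (1.56%, against 3.44%). Cryoinjury replicate 4 carried part of this: without it 57 were higher and 24 lower, and the median was 0.21. The median over erythroid members was 0.08, over blood progenitor members 0.34 and over endothelium members 0.52.

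The lowest injury p among members was at a peak near FP102809.1, a clone-named gene (chromosome 3, 1123212 to 1123712), with an edgeR adjusted p of 0.0549. It had 0.935, 0.500, 0.383 and 0.262 CPM after cryoinjury and 0.763 and 25.9 CPM after sham, so sham replicate 2 alone was high. Each cryoinjury value is the minimum count of 1, which stands for 1 read or none. A second member at the same gene had 17.5 CPM in sham replicate 2. Without sham replicate 1 that library is the only sham library left, so calls of that fit are not read. Both members were singled out after their values were seen.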

How the data were processed

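ATAC and RNA tables of zebrafish heart libraries were used. The authors deposited whole-number counts per peak, for a single peak set shared by 14 ATAC libraries, and per gene for 11 RNA libraries. They also deposited FPKM per peak, which equal the count scaled to a fixed library total and were not used further, and GC content as a fraction of each peak. Per the submitters' processing notes, which give no roles or order, the build was GRCz10 and the tools were Bowtie 1.2.3, SAMtools 1.10, MACS2 2.2.7.1, HOMER, DiffBind 3.0.13, STAR 2.7.3a, featureCounts and edgeR 3.32.1. Whether RNA counting used strand is not given in the sources used here.

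CPM were computed by column sum. Tests were edgeR 4.0.16 quasi-likelihood tests in R 4.3.3 (two-sided, TMM, filterByExpr, all libraries of an assay in a joint fit, Benjamini-Hochberg over all 20745 genes or 61883 peaks). The filter used a minimum count of 10 and a minimum total count of 15. Errors of fold changes are standard errors. Scripts were checked on simulated counts. Gene names are those of the deposited annotation or of the RNA table. The larval RNA columns carry numbers other than their titles, so their replicates are called A, B and C and were mapped by group. The members and the lists were chosen with earlier results of these data known, so the lists' shares are not independent support. Named genes were those of the lists with a member (values of the strongest member), the 10 genes with most members, the 5 strongest members, the 5 highest and 5 lowest in adults, and the 5 member genes with the largest called RNA change in each direction at no replicate overlap. Alternatives were DESeq2 1.42.0, other scalings, no filter, a fit of the compared groups, a replicate block (by column number in RNA), other thresholds of the rule and leaving out each library. Peak sequences were not analysed here. The worth of a single count reflects counting error alone, as reads copied by PCR are not separate molecules.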

Additional observations from a re-analysis of the deposited data

Results flagged for a closer look

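Of 76 groups of 4 cryoinjury values checked, 2 held a library far from the other 3, where chance gives about 1 in 20. At the rapgef1b member on chromosome 21 nearest to the start, cryoinjury replicate 4 had 9.17 CPM and the other replicates had 1.91, 2.5 and 2.8 CPM. The median over all members was 8.64 CPM in cryoinjury replicate 4 and 5.61, 6 and 6.13 CPM in the others. The same replicate also had the highest median over all distal peaks among the adult libraries, 11.8 CPM.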

How the results depend on the processing

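The number of members was 1776 with a fold of 2, 491 with a fold of 5 and 465 with a minimum of 20 CPM, and 964 to 1138 on leaving out a larval library. Member genes called lower in epicardium RNA ranged from 107 to 186 over all alternatives, and from 107 to 133 on leaving out a library. Those called higher numbered 94 with DESeq2, 98 with the compared groups only, 90 with total counts and 30 to 57 on leaving out a library. Peaks chosen with tbx18 and called lower in tcf21 epicardium numbered 445 to 886 on leaving out a library, and those chosen with tcf21 and called in tbx18 1125 to 1278. Members called for injury numbered 0 wherever both sham libraries were kept. The cause of these changes was not tested, beyond the fewer samples of each leave-out. With the replicate block the counts were 1537 (tbx18), 925 (tcf21) and 0 (injury, where unadjusted p values under 0.05 went to 48 members that were higher and 30 that were lower, with a median log2 fold change of 0.16). With the RNA column numbers as a replicate block, 138 member genes were called lower (18.4%, against 7.05% of all genes) and 52 higher (6.93%, against 4.65%). Same-numbered ATAC libraries deviated together weakly (correlations of 0.052 in tcf21, 0.126 in tbx18, and -0.005 and 0.05 in adults), and RNA correlations were 0.07, -0.162 and -0.084, so the numbers are not taken as pairs. Only 1 of 3 RNA epicardium libraries correlated best with its own number. Of 720 RNA values of 60 named genes under alternatives, 682 kept their direction and call, 22 lost the call, 6 gained it and 10 changed sign, all at genes that were not called. These were cers1 (total counts 0.09, leave-outs -1.31 to 0.07, above 0 at 0.01 without epicardium C and 0.07 without non-epicardium A), kdr (total counts 0.30), nr4a3 (total counts 0.04, leave-outs -0.92 to 0.04), pdzk1ip1 (total counts 0.13, leave-outs -0.93 to 0.11) and sox10 (leave-outs -0.27 to 1.0, with -0.25 without epicardium A).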

Other observations

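Among the member genes, 82 also had a distal peak of the mirrored rule, that is, a peak more open in epicardium in both reporter lines. Of the 71 tested in RNA, 4 (5.63%) were called lower in epicardium and 19 (26.8%) higher, with a median log2 fold change of 0.93. The member genes as a whole had 19.7% and 7.73%. Genes with a mirrored-rule peak, with or without a member, were called higher in 25.5% of cases.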
